A study of Mus musculus with 6 samples.

Results

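The 48 genes described here encode metalloproteinases that cut matrix and cell-surface proteins, relatives of these enzymes, and their tissue inhibitors. They were chosen by symbol from the 14549 genes of the table: 12 ADAM genes, 17 ADAMTS genes, 5 ADAMTS-like (ADAMTSL) genes, 10 MMP genes and all 4 TIMP genes. GENCODE M21 lists 82 protein-coding symbols of these forms for mouse, and the other 34, most of them ADAM and MMP genes, were not analysed here. Polyadenylated RNA came from epicardium and subepicardium dissected from mouse hearts at stage E16.5. The dKO group was 3 pools (numbered 1, 2 and 3) from embryos with floxed Meis1 and Meis2 on both chromosomes and the WT1-Cre driver (Meis1 fl/fl, Meis2 fl/fl, WT1-Cre), and the control group was 3 pools (1, 2 and 4) labelled wild type. Each pool held 2 hearts of a single genotype, the hearts came from at least 3 litters, and the labels do not say whether the controls carried floxed alleles or the Cre. WT1-Cre recombines in cells that express or descend from cells expressing Wt1, so other cells of the dissected layer keep both Meis genes. Nothing in the labels pairs the pools.

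ADAM proteins are membrane-anchored and shed the outer parts of receptors, ligands and adhesion molecules, although several members lack a working catalytic site. ADAMTS proteins are secreted, bind the matrix through thrombospondin repeats and cut proteoglycans, procollagens and microfibril proteins, while ADAMTSL proteins share those repeats but have no protease domain. MMPs cut collagens, basement membrane and many surface proteins, either as secreted enzymes or anchored in the membrane, and TIMPs bind their active site. The epicardium is a mesothelial sheet from which fibroblasts and mural cells of the heart arise, cells that must cross and rebuild matrix as they enter the subepicardial space.

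All values are normalised read counts, scaled to 1000000 reads of an effective library size. Changes are log2 differences, dKO minus control, from limma on log2(value + 1), a scale that understates the change of low genes, with p-values adjusted over all 14549 genes and a threshold of 0.05. Recovered totals ran from 13146322 to 20635676 reads per library. Meis2 had 44.5, 34.8 and 44.5 in the dKO pools against 86.1, 85.6 and 63.3 in controls (limma adjusted p = 0.0035), and Meis1 had 58.5, 74.1 and 65.0 against 106, 63.6 and 63.4 (limma adjusted p = 0.521). Both values cover all exons, so neither measures the deleted part. Of 14 epicardial markers 13 were in the table, with summed values of 484 to 578 in dKO pools and 2301 to 3307 in controls. Their levels fell with genotype (12 of 13 lower), as did fibroblast and matrix markers (9 of 12 lower, summed values 13869 to 17020 in dKO pools and 30545 to 35513 in controls). Cardiomyocyte markers rose (13 of 14 higher, 30182 to 33038 in dKO pools and 5805 to 12815 in controls), and so did mural markers (7 of 10 higher, 2094 to 2264 in dKO pools and 720 to 1121 in controls). Lymphatic markers were lower too (6 of 7, summed values 148 to 198 in dKO pools and 590 to 859 in controls), as were mast cell markers (4 of 5 in the table, 53.2 to 66.7 in dKO pools and 283 to 401 in controls) and 4 of 9 macrophage markers (173 to 227 in dKO pools and 377 to 551 in controls). Of 10 endothelial markers 1 was lower, and the 6 erythroid markers did not pass. By log2 Ddx3y minus log2 Xist, dKO 1, dKO 2 and control 4 read as male (4.44, 5.45 and 5.85) and dKO 3, control 1 and control 2 as female (-9.93, -9.80 and -9.21), so the sexes were unevenly spread over the groups. In such tissue RNA, fewer cells of a type and less RNA per cell cannot be told apart.

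Of the 48 genes, 17 (35.4%) were lower in the dKO pools and 6 (12.5%) were higher, while 25 did not pass. Over all genes tested the corresponding shares were 12.2% lower and 9.81% higher, 22% in either direction. The groups did not overlap for 26 of the 48 genes, 18 with dKO below control and 8 with dKO above, against 40.4% of all genes in either direction (21.1% below and 19.3% above). By family, the lower and higher counts were 3 and 0 of 4 TIMP genes, 4 and 2 of 10 MMP genes, 2 and 3 of 12 ADAM genes, 6 and 1 of 17 ADAMTS genes, and 2 and 0 of 5 ADAMTSL genes. Mmp9 is among the 6 higher genes, the 2 higher MMP genes and the 8 with dKO above. It met the filter on low values (1 in 3 or more libraries) through the dKO pools alone, so its place in these counts was bound to that selection. Median log2 changes were -0.97 for TIMP, -0.17 for MMP, -0.03 for ADAM, -0.03 for ADAMTS, -0.67 for ADAMTSL and 0.0016 for all genes tested. The 3 called TIMP genes and the 2 called ADAMTSL genes were all lower, while the ADAM, ADAMTS and MMP families each held called members of both directions. The ADAMTSL median was -1.02 without control 1, -0.27 without control 4 and -0.30 without dKO 2. The MMP median was -0.35 without dKO 3, -0.33 without control 2, -0.31 without dKO 2 and -0.11 without dKO 1, and it was -0.59 with a filter at 5 that removed its lowest members. The ADAM, ADAMTS and whole-set medians lay close enough to 0 that they changed sign or by over 1.5 times in fits that left out 1 library.

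**Figure D1:**
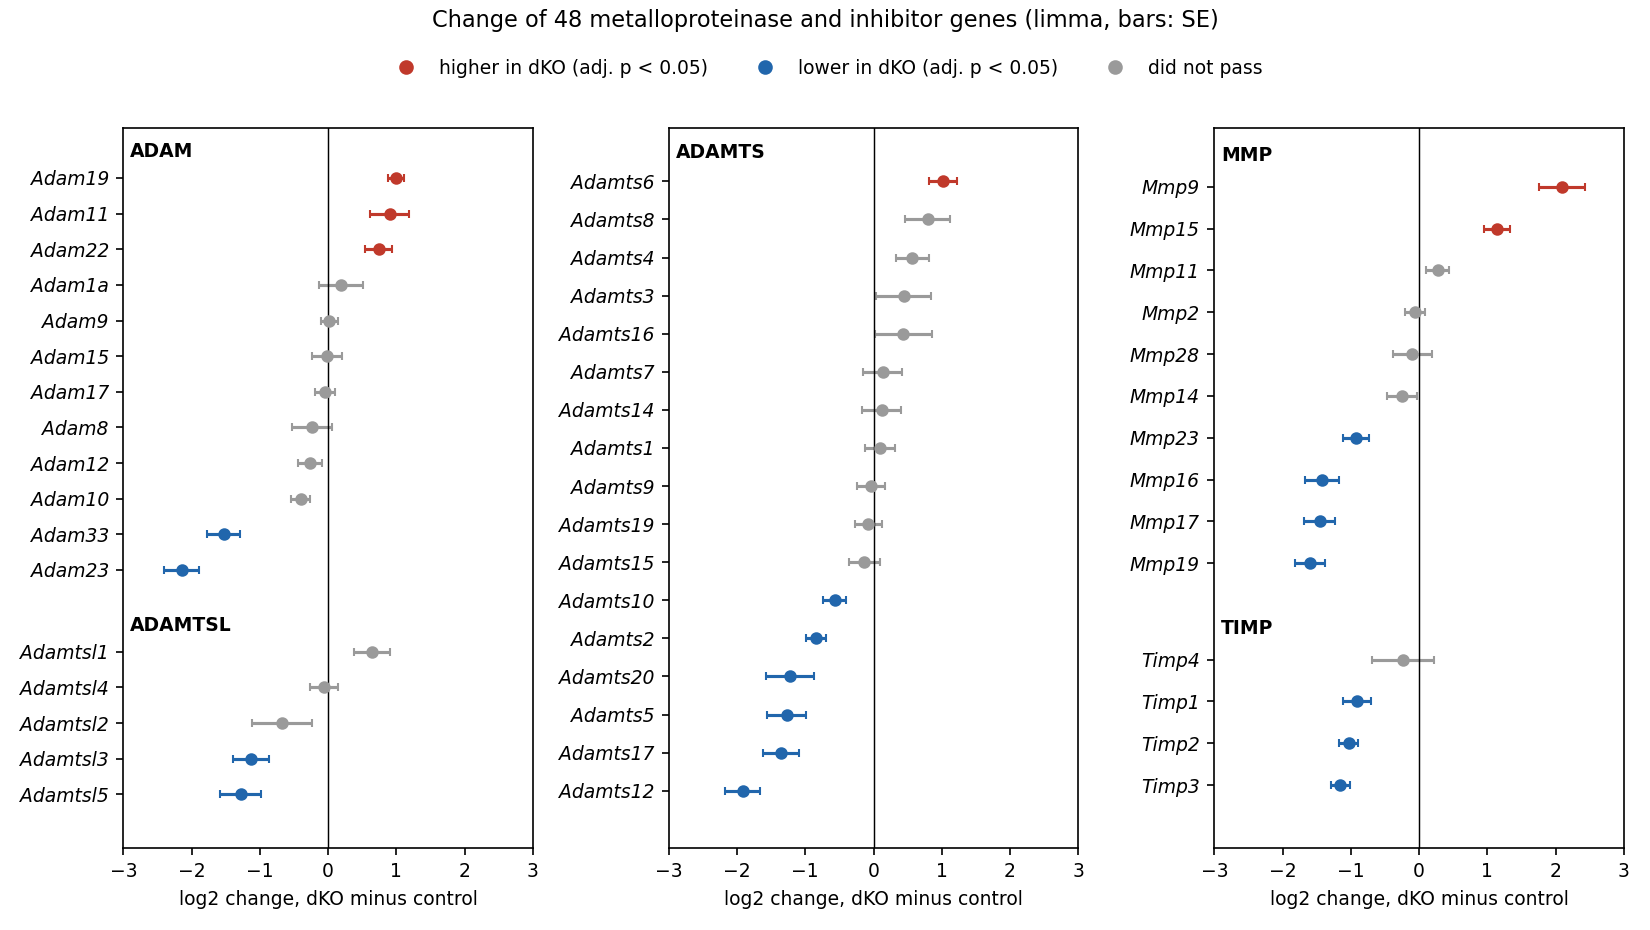
Log2 change (dKO minus control) of the 48 genes by family, with bars for the standard error of the limma fit; red points were higher and blue points lower at an adjusted p under 0.05, and grey points did not pass. The 3 called TIMP genes lie between -1.15 and -0.91, whereas the MMP genes run from -1.60 (Mmp19) to 2.10 (Mmp9).

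The inhibitors fell nearly in parallel: Timp1, Timp2 and Timp3 each had 44.6% to 51.2% of their control mean in the dKO pools. Timp3, whose product binds to the matrix and inhibits ADAM and ADAMTS enzymes as well as MMPs (GRCm38 chromosome 10, 86300372 to 86349506), had 254, 259 and 245 in dKO pools against 481, 592 and 626 in controls. The highest dKO value was thus far under the lowest control, and the log2 change was -1.15 (SE 0.13, limma adjusted p = 0.000292). Timp2, which inhibits MMPs and also assists activation of the MMP2 proenzyme (chromosome 11, 118301069 to 118355740), had 192, 214 and 225 in dKO pools and 510, 378 and 411 in controls. Its groups did not overlap either (log2 change -1.03, SE 0.14, limma adjusted p = 0.000791). Timp1, a soluble inhibitor of most secreted MMPs (chromosome X, 20870166 to 20874735), was far lower in level, with 6.93, 10.2 and 8.79 in dKO pools and 17.0, 16.4 and 17.3 in controls. The 3 controls lay within 1 unit of one another and above each dKO pool (log2 change -0.91, SE 0.20, limma adjusted p = 0.0104).

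Timp4 (chromosome 6, 115241892 to 115252205) was barely detected: 0.715, 1.37 and 0.560 in dKO pools and 0.0926, 1.50 and 2.83 in controls, the lowest of which rested on 1 read. Its groups overlapped and it did not pass (log2 change -0.24, SE 0.45, limma adjusted p = 0.75). Timp1, Timp3 and Timp4 lie inside Syn1, Syn3 and Syn2, synapsin genes on the opposite strand, and the library kit is not stated to keep strand. Exons of Syn3 cover 21.3% of the exonic bases of Timp3, but Syn3 itself had 6.74, 3.66 and 0.999 in dKO pools and 3.06, 18.3 and 6.89 in controls, a small fraction of the Timp3 values. Timp1 shares no exonic base with another gene, and Timp2 shares none.

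**Figure D2:**
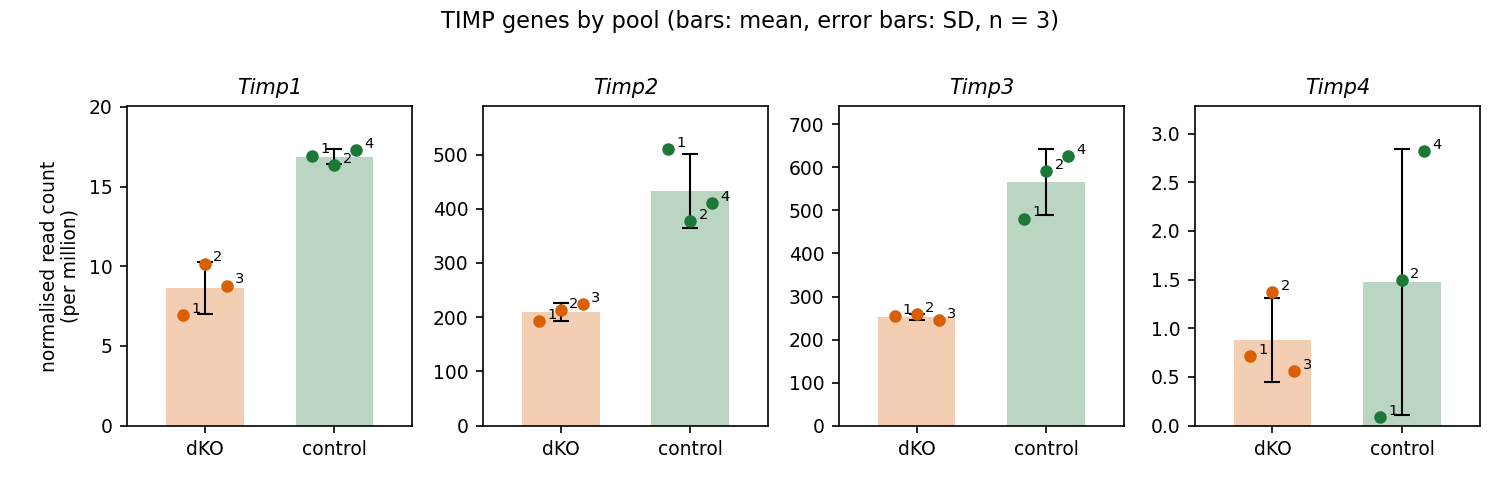
Normalised read counts of the 4 TIMP genes in each pool, dKO on the left and control on the right; points are pools labelled by number, bars the mean and error bars the SD over 3 pools. For Timp1, Timp2 and Timp3 each dKO point lies below each control point, and for Timp4 the groups overlap.

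Set per kilobase of exonic sequence, so that genes of different length can be compared, Timp2 stood second of the 48 genes in dKO pools (54.0 per kb) and first in controls (111 per kb). Mmp2 stood first in dKO pools (77.5 per kb) and second in controls (81.6 per kb). The summed level per kb of the 4 TIMP genes was 88.5, 98.4 and 97.8 in the dKO pools and 209, 188 and 202 in controls. The same sum over the 10 MMP genes was 164, 162 and 167 in the dKO pools and 179, 155 and 192 in controls. The ratio of the TIMP sum to the MMP sum was therefore 0.540, 0.608 and 0.585 in dKO pools against 1.17, 1.22 and 1.05 in controls. These sums follow their most abundant members and measure RNA, not inhibitor or enzyme activity.

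**Figure D3:**
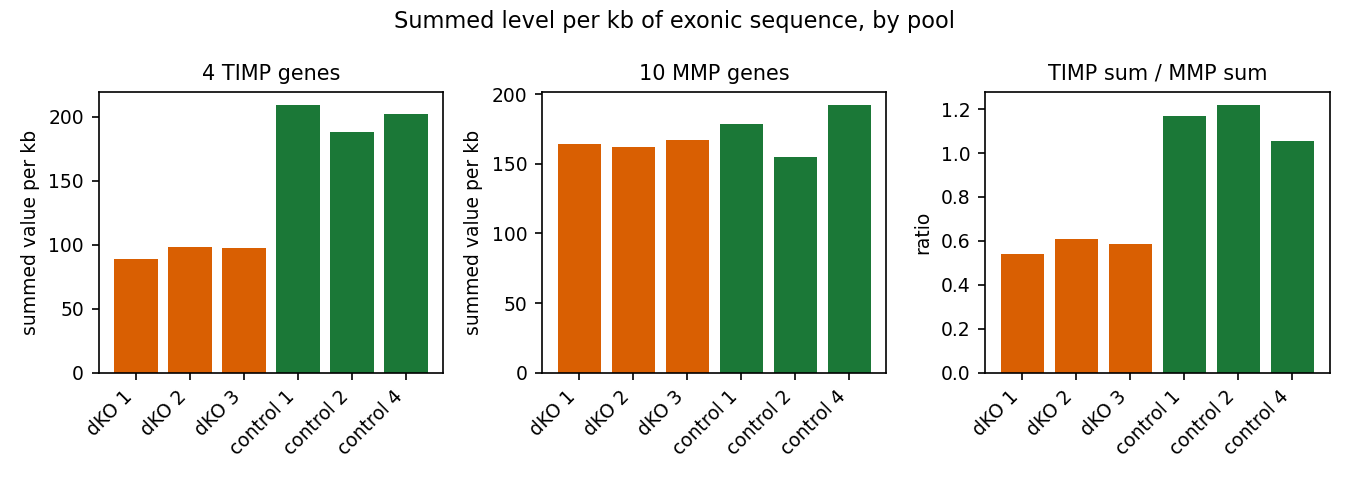
Summed normalised read counts per kb of exonic sequence for the TIMP genes and the MMP genes in each pool, and the ratio of both sums; each bar is 1 pool, with dKO pools on the left. The TIMP sum is 88.5 to 98.4 in dKO pools and 188 to 209 in controls, while the MMP sums of the groups overlap.

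The 250 bases before the start annotated in RefSeq on GRCm38.p6 were read for the 29 of the 48 genes that had an entry. For 23 of these 29 genes, bases just after that start were found in a GENCODE transcript of the gene. TGACAG, the core motif bound by Meis proteins, was searched on both strands, where it reads TGACAG or CTGTCA. It occurred in 5 of the 29 genes (17.2%), against 17.95% of the 27025 genes in the promoter table, among them 3 of 11 lower, 0 of 3 higher and 2 of 15 genes that did not pass. The windows below are those of the inhibitors that fell together, of Mmp15, which rose, and of Mmp23 and Adamtsl5, lower genes with the motif, which stands in capitals. They lie at chrX:20869916-20870165 (Timp1, plus strand), chr11:118355412-118355661 (Timp2, minus), chr10:86300162-86300411 (Timp3, plus), chr8:95352046-95352295 (Mmp15, plus), chr4:155653385-155653634 (Mmp23, minus) and chr10:80348449-80348698 (Adamtsl5, minus).
Timp1: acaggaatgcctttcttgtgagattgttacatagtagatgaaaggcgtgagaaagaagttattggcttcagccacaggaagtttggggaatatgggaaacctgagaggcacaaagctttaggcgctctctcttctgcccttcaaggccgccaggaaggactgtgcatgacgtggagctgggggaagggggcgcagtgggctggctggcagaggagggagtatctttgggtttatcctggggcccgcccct
Timp2: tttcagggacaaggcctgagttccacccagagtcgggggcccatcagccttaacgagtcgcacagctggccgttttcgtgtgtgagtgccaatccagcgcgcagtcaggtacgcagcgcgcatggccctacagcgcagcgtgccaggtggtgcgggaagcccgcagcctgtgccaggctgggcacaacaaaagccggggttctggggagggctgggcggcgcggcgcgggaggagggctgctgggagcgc
Timp3: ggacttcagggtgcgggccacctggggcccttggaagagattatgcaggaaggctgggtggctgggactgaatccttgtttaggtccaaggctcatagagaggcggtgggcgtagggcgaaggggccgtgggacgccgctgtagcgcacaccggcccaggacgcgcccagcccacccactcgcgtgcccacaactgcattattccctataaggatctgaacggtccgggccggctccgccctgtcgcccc
Mmp15: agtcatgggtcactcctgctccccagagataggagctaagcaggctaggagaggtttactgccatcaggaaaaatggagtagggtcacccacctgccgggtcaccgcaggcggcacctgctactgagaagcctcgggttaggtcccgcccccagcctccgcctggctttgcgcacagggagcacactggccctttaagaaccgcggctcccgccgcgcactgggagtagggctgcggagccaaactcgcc
Mmp23: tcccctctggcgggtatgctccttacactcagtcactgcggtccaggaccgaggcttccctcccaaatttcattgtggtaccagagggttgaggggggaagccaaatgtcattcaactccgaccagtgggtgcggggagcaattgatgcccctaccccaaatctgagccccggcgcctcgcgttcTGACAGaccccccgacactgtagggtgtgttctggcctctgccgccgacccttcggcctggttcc
Adamtsl5: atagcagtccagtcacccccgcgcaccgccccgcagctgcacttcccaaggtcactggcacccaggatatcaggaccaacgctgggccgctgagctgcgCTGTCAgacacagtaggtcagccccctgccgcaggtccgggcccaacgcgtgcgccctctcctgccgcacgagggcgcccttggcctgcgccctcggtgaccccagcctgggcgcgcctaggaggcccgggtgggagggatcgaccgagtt
The motif begins 65 bases before the start used for Mmp23 and 151 bases before that of Adamtsl5, and these letters are absent from the other 4 windows. Mmp23 has another RefSeq start, and the same motif begins 159 bases before it. The motif also occurred before Adamts20, which fell, and before Timp4 and Adamtsl2, which did not pass. RefSeq and GENCODE starts differ for some genes. The Timp2 window lies inside the GENCODE span of Timp2, and the Timp3 and Mmp15 windows run past the GENCODE start of each gene. Those windows are thus not wholly upstream by GENCODE. A match is a description of the letters only, and binding was not measured here.

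Among the MMP genes, 4 fell, 2 rose and 4 did not pass. Those that fell were Mmp19, a secreted enzyme with basement membrane substrates, the membrane-anchored Mmp16 and Mmp17, and Mmp23, a short membrane-bound member without a hemopexin domain. Mmp19 (chromosome 10, 128790910 to 128800824) had 7.30, 6.40 and 6.55 in dKO pools against 29.7, 20.0 and 18.9 in controls. Its dKO pools were close to one another at 29.5% of the control mean (log2 change -1.60, SE 0.22, limma adjusted p = 0.000836), and 28.3% of its exonic bases are shared with Tmem198b and Gm47093. Tmem198b had 19.8 ± 0.110 in dKO pools and 21.8 ± 5.09 in controls (SD, n = 3), and did not pass (limma adjusted p = 0.732).

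Mmp17, held to the membrane by a lipid anchor (chromosome 5, 129584169 to 129611099), had 5.38, 4.40 and 3.78 in dKO pools against 15.0, 15.0 and 12.2 in controls. No pool of the dKO group came near the controls (log2 change -1.45, SE 0.22, limma adjusted p = 0.0016). Mmp16, a transmembrane MMP (chromosome 4, 17852893 to 18119145), had 7.24, 10.9 and 8.16 in dKO pools and 35.4, 19.4 and 22.3 in controls. Control 1 was the highest, and the groups were apart without it too (log2 change -1.42, SE 0.25, limma adjusted p = 0.00326). Mmp23 (chromosome 4, 155650655 to 155653384) averaged 38.3 ± 10.97 in dKO pools and 71.99 ± 7.01 in controls (SD, n = 3; log2 change -0.92, SE 0.19, limma adjusted p = 0.0064).

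Mmp15, another transmembrane MMP (chromosome 8, 95352268 to 95375080), moved the other way from Mmp16, with 194, 169 and 175 in dKO pools against 58.4, 83.9 and 107 in controls. It was 2.16 times the control mean (log2 change 1.1404, SE 0.19, limma adjusted p = 0.00256), and within the controls it was lowest in control 1, the pool with the lowest cardiomyocyte score. Control 1 was also the lowest control for the higher genes Adam19, Adamts6 and Adam11, but the highest for Adam22. The part of cardiomyocytes in these levels was not tested. Mmp9, the gelatinase that is abundant in granulocytes and osteoclasts (chromosome 2, 164940780 to 164955850), had 4.94, 2.26 and 4.80 in dKO pools. In controls it rested on 0, 0 and 5 reads, and a count of 0 allows up to 0.185 in control 1 and 0.191 in control 2. Over all pools of a group it had 207 of 52105033 reads in dKO and 5 of 45934606 reads in control. Mmp9 therefore passed the filter on low values through the dKO pools alone, which bears on its call (log2 change 2.10, SE 0.34, limma adjusted p = 0.0020); with edgeR on the recovered reads the log2 change was 5.14 (adjusted p = 0.0075), where 8.96% of all genes were called higher and 11.4% lower. The size of the limma change depends on the pseudocount (4.29 at 0.1 and 0.79 at 5).

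Granulocyte markers were low throughout: of 8 on the list, Ly6g, Elane, Mpo and Camp were not in the table, and S100a8, S100a9, Ngp and Ltf did not pass. The sum of these 4 was 11.4, 6.88 and 41.1 in dKO pools and 3.77, 7.91 and 11.1 in controls, highest in dKO 3. Mmp9 was about as high in dKO 1 as in dKO 3, and the part of such cells in its level was not tested.

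Mmp2 and Mmp14 did not pass. Mmp2, the gelatinase of fibroblasts and other mesenchymal cells, had 240, 267 and 277 in dKO pools and 250, 241 and 335 in controls, which overlapped (log2 change -0.06, SE 0.15, limma adjusted p = 0.807). Mmp14, the transmembrane enzyme that activates the MMP2 proenzyme, had 107, 138 and 149 in dKO pools and 216, 110 and 155 in controls (log2 change -0.25, SE 0.22, limma adjusted p = 0.465). Control 1 was its highest control, and the change was -0.49 without control 2 and 0.13 without control 1 and dKO 1 together. Mmp11 and Mmp28 had log2 changes of 0.27 and -0.10 and did not pass either.

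**Figure D4:**
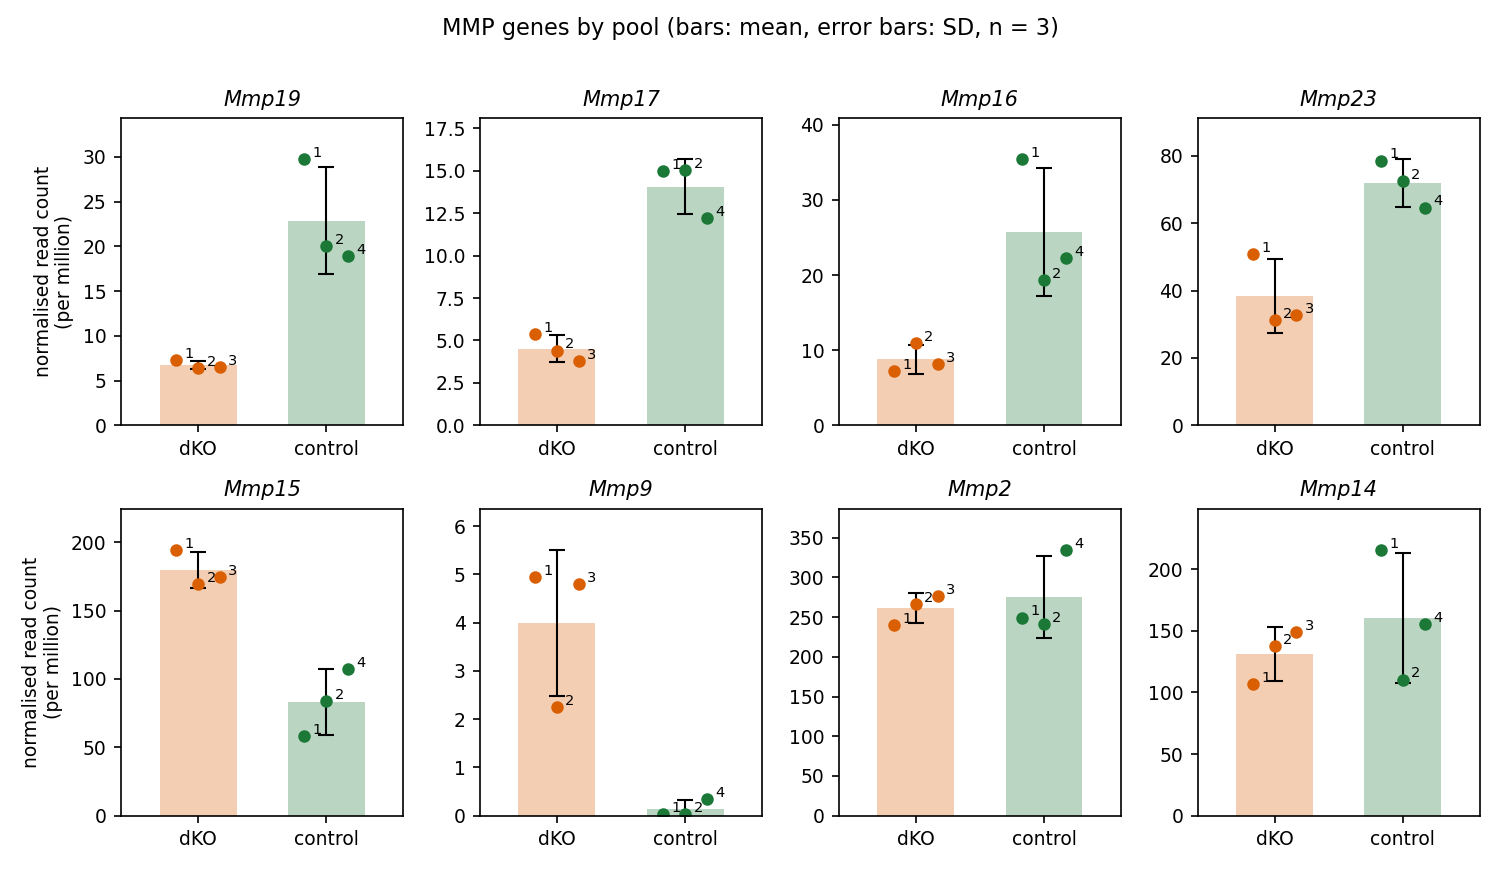
Normalised read counts of 8 MMP genes in each pool, dKO on the left and control on the right; points are pools labelled by number, bars the mean and error bars the SD over 3 pools. Mmp19, Mmp17, Mmp16 and Mmp23 are lower and Mmp15 and Mmp9 higher in each dKO pool, and the groups of Mmp2 and Mmp14 overlap.

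In the ADAM family 3 genes rose, 2 fell and 7 did not pass. Adam23, Adam22 and Adam11, which lack a working catalytic site and act as adhesion partners and receptors in neurons, went in different directions. Adam23 (chromosome 1, 63445891 to 63596276) had 4.94, 10.1 and 6.16 in dKO pools against 27.1, 40.2 and 34.1 in controls. It had 20.9% of the control mean, with a log2 change of -2.14 (SE 0.26, limma adjusted p = 0.000389), the lowest of the 48. Adam22 (chromosome 5, 8072352 to 8368160) had 33.4, 43.4 and 40.3 in dKO pools against 28.8, 17.9 and 23.0 in controls. Its groups lay close together (log2 change 0.74, SE 0.19, limma adjusted p = 0.0208), and the call was lost without dKO 2, dKO 3, control 2 or control 4 (limma adjusted p = 0.0832, 0.0738, 0.0656 and 0.0509). Adam11 averaged 7.79 ± 2.39 in dKO pools and 3.65 ± 0.905 in controls (SD, n = 3; log2 change 0.90, limma adjusted p = 0.0436). That call was lost without any 1 of the dKO pools, without control 1 or without control 2 (limma adjusted p from 0.0617 to 0.123), with edgeR (adjusted p = 0.0541) and in the fit that included pool sex (limma adjusted p = 0.0946).

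Of the catalytically active ADAMs, Adam19 rose and Adam33 fell. Adam19, which mice need for normal development of the heart's cushions (chromosome 11, 46055992 to 46147343), had 229, 247 and 243 in dKO pools against 106, 123 and 130 in controls. Each dKO pool was far above the highest control, with little spread in either group (log2 change 0.9998, SE 0.12, limma adjusted p = 0.000383), and 10.1% of its exonic bases are shared with Gm16033 and Gm16034. Adam33 (chromosome 2, 131050591 to 131063814) had 18.0, 14.5 and 8.65 in dKO pools against 40.0, 36.0 and 44.2 in controls (log2 change -1.53, SE 0.24, limma adjusted p = 0.00169). Adam10, the main Notch sheddase, had 215, 254 and 280 in dKO pools and 367, 304 and 319 in controls. Its groups did not overlap, yet it did not pass (log2 change -0.40, SE 0.14, limma adjusted p = 0.0612). Adam9 had 106, 124 and 134 in dKO pools and 113, 115 and 130 in controls (log2 change 0.02, SE 0.13, limma adjusted p = 0.938). Adam17, which sheds growth factor and cytokine precursors, had a log2 change of -0.04 (SE 0.15), and Adam8, Adam12, Adam15 and Adam1a had -0.23, -0.27, -0.01 and 0.19, none past the threshold. Of the exonic bases of Adam1a 63.7% are shared with other genes, so its value is uncertain.

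**Figure D5:**
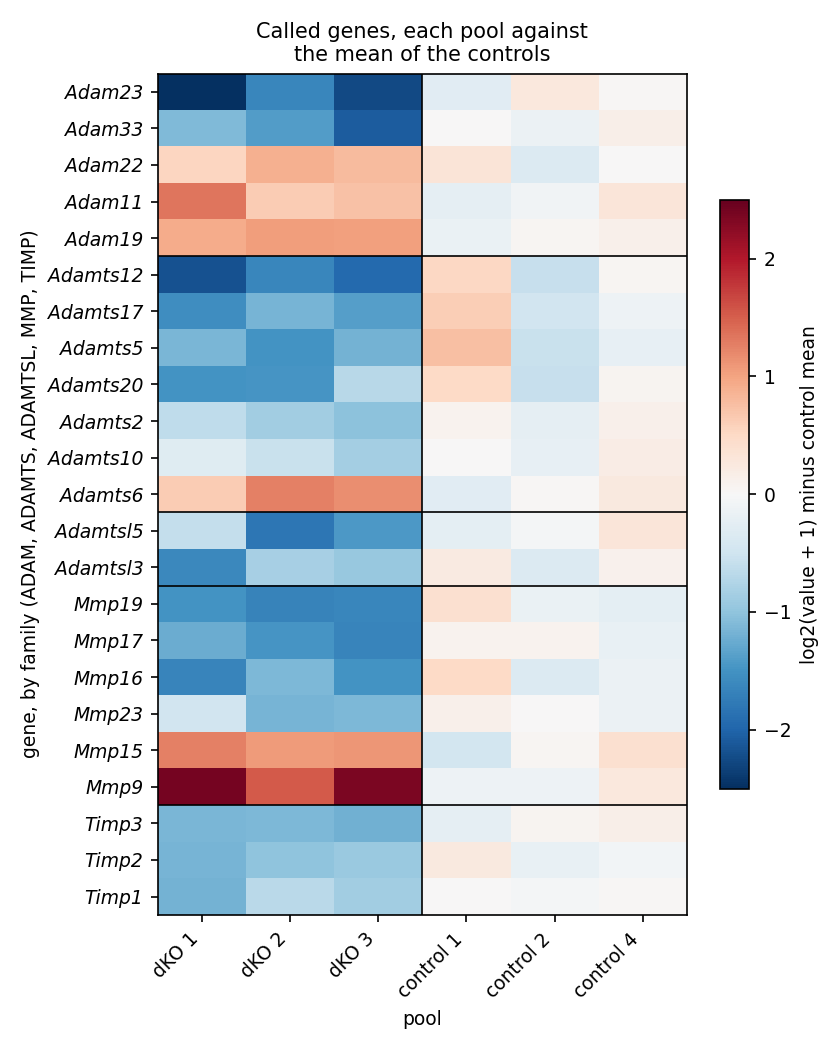
The 23 called genes in rows, grouped by family, and the 6 pools in columns, dKO on the left; colour gives log2(value + 1) of the pool minus the mean of the 3 controls, blue for lower and red for higher. The dKO pools share a direction in each row, and control 1 is above the other controls for Adamts12, Adamts17, Adamts5 and Adamts20.

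Among the ADAMTS genes 6 fell, 1 rose and 10 did not pass. Adamts12, whose product cuts cartilage oligomeric matrix protein (chromosome 15, 11064790 to 11349231), had 15.8, 23.5 and 18.7 in dKO pools against 108, 50.0 and 78.1 in controls. Its controls were widely spread but all far above the highest dKO pool (log2 change -1.92, SE 0.26, limma adjusted p = 0.000683). Adamts2, which removes the amino-terminal propeptide of fibrillar procollagens (chromosome 11, 50602084 to 50807573), had 68.0, 57.7 and 51.7 in dKO pools against 114, 90.9 and 116 in controls (log2 change -0.85, SE 0.15, limma adjusted p = 0.00301). The related procollagen peptidase genes Adamts3 and Adamts14 had log2 changes of 0.44 and 0.12 and did not pass. Adamts3 had 2.64, 8.17 and 11.6 in dKO pools and 4.66, 4.05 and 4.86 in controls, and without dKO 1 it was called higher (log2 change 0.96, limma adjusted p = 0.0328).

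Adamts17 (chromosome 7, 66839735 to 67153171) had 9.92, 13.4 and 11.4 in dKO pools against 47.9, 21.9 and 28.2 in controls, with control 1 the highest (log2 change -1.36, SE 0.27, limma adjusted p = 0.0054). Of the proteoglycan-cutting members, Adamts5 averaged 28.9 ± 3.89 in dKO pools and 76.5 ± 37.9 in controls (SD, n = 3; log2 change -1.27, limma adjusted p = 0.0095). Adamts20 averaged 2.56 ± 1.22 in dKO pools and 7.39 ± 2.99 in controls (SD, n = 3; log2 change -1.22, limma adjusted p = 0.031), a call that was lost without dKO 1, dKO 2, control 1 or control 4 (limma adjusted p from 0.0824 to 0.0987) and in the fit that included pool sex (limma adjusted p = 0.0714). The other proteoglycanase genes did not pass: Adamts1 had 92.3, 78.0 and 103 in dKO pools and 128, 69.3 and 68.9 in controls (log2 change 0.10, SE 0.23, limma adjusted p = 0.801). Adamts9 had 113, 117 and 107 in dKO pools and 165, 87.6 and 104 in controls (log2 change -0.03, SE 0.20, limma adjusted p = 0.925). Adamts4, Adamts8 and Adamts15 had log2 changes of 0.57, 0.80 and -0.13.

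The microfibril-associated pair Adamts6 and Adamts10 moved in opposite directions. Adamts6, the only ADAMTS gene called higher in all 6 pools together (chromosome 13, 104287835 to 104496695), had 31.1, 48.7 and 45.2 in dKO pools against 16.0, 20.3 and 23.7 in controls (log2 change 1.02, SE 0.21, limma adjusted p = 0.0069). Adamts10 averaged 43.7 ± 8.52 in dKO pools and 64.9 ± 9.03 in controls (SD, n = 3; log2 change -0.57, limma adjusted p = 0.0371). That call was lost without dKO 2, dKO 3, control 1 or control 4 (limma adjusted p from 0.0623 to 0.143). It was also lost in the fit of all 6 pools without a variance trend (limma adjusted p = 0.0844). Adamts7, Adamts16 and Adamts19 had log2 changes of 0.13, 0.43 and -0.08 and did not pass.

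Some genes of the family are neighbours. Adamts1 and Adamts5 lie head to tail on chromosome 16 with 53.06 kb and no other protein-coding gene between them, and Adamts5 was called lower while Adamts1 did not pass. Adamts15 and Adamts8 lie 20.11 kb apart on chromosome 9, with log2 changes of -0.13 and 0.80, neither called. Whether the members of a pair differ in their change was not tested.

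Of the ADAMTSL genes, whose products bind microfibrils and other matrix without cutting it, Adamtsl3 and Adamtsl5 fell. Adamtsl3 (chromosome 7, 82335694 to 82614450) had 5.63, 10.3 and 9.52 in dKO pools against 22.6, 15.0 and 20.9 in controls (log2 change -1.13, SE 0.26, limma adjusted p = 0.0114). Adamtsl5 (chromosome 10, 80339110 to 80348412) had 13.6, 5.36 and 7.28 in dKO pools against 17.8, 20.4 and 26.4 in controls (log2 change -1.28, SE 0.30, limma adjusted p = 0.0132). The highest dKO pool was near the lowest control, and without control 4 the call was lost (limma adjusted p = 0.0511). Adamtsl1 had 28.6, 39.7 and 29.4 in dKO pools and 31.8, 14.8 and 17.2 in controls, and did not pass (log2 change 0.65, SE 0.26, limma adjusted p = 0.109). Without control 1, the highest control, it was called higher (log2 change 0.97, limma adjusted p = 0.0058). Adamtsl4 had 9.11, 10.3 and 8.31 in dKO pools and 9.85, 8.90 and 10.1 in controls (log2 change -0.05, limma adjusted p = 0.881), and Adamtsl2 had a log2 change of -0.67 with an SE of 0.44.

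Control 1 stood apart for the ADAMTS genes. It was at least 1.5 times the mean of the other controls for 10 of 17 ADAMTS genes, 3 of 10 MMP genes, 1 of 5 ADAMTSL genes, 0 of 12 ADAM genes and 0 of 4 TIMP genes, against 9.60% of all genes. The cardiomyocyte score (mean log2 value of the markers) was 10.2, 10.03 and 10.005 in the dKO pools and 7.71, 8.69 and 8.82 in controls 1, 2 and 4. The epicardial sum was 484, 529 and 578 in the dKO pools and 3307, 2434 and 2301 in the same controls. Without control 1 and dKO 1 together, 17 of the 48 genes were lower and 6 higher, 20 of them among the 23 called in all pools. Adam11, Adamts20 and Mmp9 left the count, the last because the filter then removed it, and Adamtsl1, Adamts3 and Adamtsl2 entered it.

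The scores of the dKO and control pools did not overlap, so score and genotype cannot be told apart in 6 pools. With the score as a covariate, 1 of the 23 calls held, that of Timp3 (log2 change -1.68, limma adjusted p = 0.0117), Adamtsl1 was called higher, and over all genes 179 fell and 55 rose. In that fit the log2 changes of Timp2, Adam23 and Adam33 were -0.42, -2.59 and -1.79, and those of Mmp15, Adamts5 and Adamts17 were -0.015, 0.31 and 0.084, none past the threshold. The part of the lower epicardial, fibroblast, lymphatic, mast cell and macrophage levels, and of the higher mural levels, in the changes of the 48 genes was not tested.

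Other genes of the same pathways were read from lists chosen by function, to be set against 12.2% of all genes lower and 9.81% higher. Of 9 measured genes on a list of inhibitors, clearance receptors and related genes outside the TIMP family, 5 fell and 0 rose. Those that fell were Reck, Lrp1, Bsg, Serpinh1 and Tfpi2, of which Bsg and Serpinh1 are neither protease inhibitors nor clearance receptors. Reck, a membrane-anchored inhibitor of MMPs and ADAM10, had 17.9, 25.0 and 19.9 in dKO pools against 122, 70.0 and 91.3 in controls. Its decrease was larger than that of any TIMP gene in log2 change (-2.10, SE 0.21, limma adjusted p = 0.00011), and Tfpi2, a serine protease inhibitor of the matrix, had a log2 change of -1.34 (limma adjusted p = 0.0027). Of 6 measured proteases and enhancers of the astacin and plasminogen systems, 5 fell and 0 rose. Tll1, a procollagen C-proteinase of the tolloid type, had 1.27, 0.703 and 0.414 in dKO pools against 16.9, 13.2 and 16.9 in controls. Pcolce, which enhances procollagen C-proteinases, averaged 64.8 ± 11.6 in dKO pools and 194 ± 27.5 in controls (SD, n = 3).

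Among 12 measured cofactors and activating proteases of the ADAMs, 3 fell and 0 rose, against 12.2% of all genes lower and 9.81% higher. The proprotein convertase gene Pcsk5 had 8.17, 10.2 and 10.9 in dKO pools against 92.0, 94.4 and 97.6 in controls (log2 change -3.16, SE 0.15). Tspan5, a tetraspanin that carries ADAM10 to the surface, had 24.1, 15.8 and 16.7 in dKO pools against 124, 62.4 and 45.1 in controls (log2 change -1.87, SE 0.32). Of 19 measured substrates of ADAM10 and ADAM17, 6 fell and 5 rose; Sdc4 (log2 change -1.59) and App (-0.86) had the smallest adjusted p. Of 17 measured substrates of ADAMTS enzymes, 11 fell and 2 rose, with Reln, which is also on the lymphatic marker list, at -3.42 and Thbs1 at -1.53 on the log2 scale, and the versican gene Vcan did not pass (0.58, limma adjusted p = 0.128). Of the pair of enzymes that fucosylate thrombospondin repeats and extend that sugar, B3glct fell (log2 change -0.68, limma adjusted p = 0.0088) and Pofut2 did not pass (-0.36, limma adjusted p = 0.163). These lists also hold matrix, epithelial and lymphatic genes of the cell types whose markers fell, and the part of those cell types in their counts was not tested.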

How the data were processed

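The deposited table holds a normalised signal per gene and library, on a linear scale. The submitters' processing notes name cutadapt, RSEM 1.3.1 and GRCm38; neither labels nor headers state an annotation release, a scaling or a gene filter. Each library came from 40 ng of RNA. Each of the 87294 deposited values was a whole read number plus 0.5, multiplied by a step constant within the library, within 0.01 reads, and the steps matched TMM-scaled library sizes; 1 read was worth 0.0487 to 0.0740. These read totals cover only the genes in the table.

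The filter on low values asked for 1 in 3 or more libraries (all 14549 genes passed, the 48 members included). The main test was limma 3.58.1 in R 4.3.3 (variance trend, no covariate, two-sided, Benjamini-Hochberg over all genes), and edgeR 4.0.16 (quasi-likelihood) on the recovered reads was an alternative, calling 1303 genes higher and 1653 lower. The limma fit was also run on simulated counts. These held no difference in cell types between the groups, unlike the pools here, so no conclusion is drawn from them. Other alternatives were pseudocounts of 0.1 and 5, other filters, no trend, quantile normalization, the title number as a block, the cardiomyocyte score, the sex of the pools, and leaving out libraries. P-values measure the spread between pools of 2 hearts. Pools of the same number did not deviate together (correlations -0.18 for number 1 and -0.20 for number 2), so the numbers were not used to pair them.

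The members and lists were chosen with earlier results of these data known. Values of each pool are given for the TIMP genes, for the 4 members of each other family with the smallest adjusted p among those called, not overlapping and with a mean of 5 or more in the higher group, and for the 2 most abundant that did not pass; other called members are given by means. Adamts3, Mmp9, Syn3, Tmem198b, Vcan and the granulocyte markers are given beside these because a result turned on them, a choice made after their values were seen. Exonic overlap and lengths come from GENCODE M21, where all 48 identifiers carried the same symbol, with lengths from the union of annotated exons.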

Additional observations from a re-analysis of the deposited data

How the results depend on the processing

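Of the 23 called genes, 17 kept their call and direction in each of the 6 fits that left out 1 library and in each other alternative except the replicate block and the cardiomyocyte score. Counts of called genes moved by over 1.5 times as follows. With the replicate block, which leaves 1 residual degree of freedom, 580 genes rose and 780 fell. The labels do not say whether pools of the same number belong together. In that fit 10 members fell, 3 of them ADAMTS and 0 ADAMTSL, and 1 ADAM gene rose. Of the 23 called genes, 14 kept their call with the block. With the cardiomyocyte score as covariate, 55 genes rose and 179 fell; 1 member rose (1 ADAMTSL, 0 ADAM, 0 ADAMTS, 0 MMP) and 1 fell (1 TIMP, 0 ADAM, 0 ADAMTS, 0 ADAMTSL, 0 MMP). With a filter at 5, 1 MMP gene rose. Without control 1 and dKO 1 together, 2 ADAMTS, 1 ADAMTSL and 1 MMP genes rose. Leaving out 1 library, or control 1 and dKO 1 together, 881 to 1421 genes rose and 1261 to 1618 fell; 3 to 6 members rose and 14 to 17 fell. By family, 1 to 2 ADAM, 1 to 2 ADAMTS, 0 to 1 ADAMTSL and 1 to 2 MMP genes rose, and 1 to 3 ADAMTSL genes fell; the filter removes Mmp9 when a dKO library is left out, which lowers the MMP count. Without that filter, a setting added after seeing the data, Mmp9 kept its call in those fits (log2 change 1.88 to 2.38). Every gene of the deposited table met the filter in the 6 pools together, Mmp9 through the dKO pools alone. These fits cannot undo that selection, so no conclusion on Mmp9 is drawn from them.

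Of the called genes, Adamts17 (0.084), Adamts5 (0.31) and Mmp15 (-0.015) changed sign, in each case with the cardiomyocyte score and not past the threshold. Among genes that did not pass, signs changed with the score for Adam10 (0.051), Adam9 (-0.076), Adamts9 (1.11), Adamtsl4 (0.0036), Mmp14 (0.91) and Meis1 (0.996). With the replicate block they changed for Adamts1 (-0.15), Adamtsl4 (0.045), Mmp2 (0.046) and Timp4 (0.29), with quantile normalization for Adamtsl4 (0.015), and without control 1 and dKO 1 together for Adamts9 (0.22), Mmp14 (0.13) and Meis1 (0.13). Leaving out 1 library, the log2 change ran from -0.056 to 0.11 for Adam9, -0.053 to 0.39 for Adamts1, -0.23 to 0.23 for Adamts9, -0.13 to 0.014 for Adamtsl4, -0.15 to 0.089 for Mmp2 -0.32 to 0.045 for Meis1, and, with the fit lacking both, -0.49 to 0.13 for Mmp14. Where no cause is given above, the cause was not tested. Depth limits Timp4, Mmp9 and Adamts16, which have libraries with 0 or 1 reads.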
